A study of Mus musculus with 25 samples.

Results

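Cholinergic neurons of the spinal cord of control mice were compared between the dark, active phase and the light, rest phase. The comparison used the 12 control immunoprecipitates of the 25 libraries in the series, 6 taken at ZT20 (zeitgeber time, hours after lights on) and 6 at ZT8, with 1 mouse behind each library. Of 50559 genes listed, the 21738 with 10 or more counts summed over the 24 immunoprecipitates were tested. Control mice were 6-month-old ChAT-Cre;RiboTag fx/+ males on a C57BL/6J background, wild-type in the labels, kept in a light and dark cycle of equal parts. The other 12 immunoprecipitates came from ChAT-BKO mice, which carried Bmal1 fx/fx in addition to the same ChAT-Cre and RiboTag alleles, and the last library was a pooled input of both genotypes. Cre under the Chat promoter switches on an HA tag on the ribosomal protein RPL22 in cells that have expressed Chat, so the immunoprecipitated RNA was that bound to ribosomes of motor neurons and other cholinergic cells together. ZT8 and ZT20 were the only times, so a gene that peaks between them could be level here.

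The circadian clock of mammalian cells is a feedback loop of transcription. BMAL1 (gene Arntl) and CLOCK bind E-boxes and drive the Period and Cryptochrome genes, whose proteins repress them, while the nuclear receptors REV-ERB and ROR act on Arntl through a second loop. The loop also drives output factors such as the PAR bZIP protein DBP, and it is overlaid by signals from feeding, body temperature, activity and glucocorticoids, to which heat shock and unfolded protein response genes are known to react.

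The 7 cholinergic markers (Chat, Slc18a3, Slc5a7, Isl1, Mnx1, Prph and Ret) were all above the pooled input, with a median log2 ratio of 2.80, whereas the medians of astrocyte, microglia and oligodendrocyte markers were -4.02, -3.77 and -3.32. Their summed level was 3990 to 4230 CPM (counts-per-million, with library sizes scaled by TMM) at ZT8 and 3760 to 4070 CPM at ZT20. Library totals were 6.78 to 18.6 M counts at ZT8 (median 9.20 M) and 10.6 to 31.7 M counts at ZT20 (median 12.4 M). Markers of some other cells differed between the times by point estimate, with none past the edgeR adjusted threshold. DESeq2 called 1 of them, the endothelial marker Cldn5 (log2 fold change 0.71, DESeq2 adjusted p = 0.048). The 20 skeletal muscle markers had a median log2 fold change of -0.95, with 11 of 20 lower at an unadjusted p under 0.05, against 3.51% of all genes. Their sum was 84.7 to 259 CPM at ZT8 (median 102) and 87.8 to 129 CPM at ZT20 (median 101). Without the 3 ZT8 libraries richest in muscle RNA, a choice made after seeing the data, their median log2 fold change was 0.69, with 18 of 20 above 0. The 3 libraries were picked by these same markers, so the choice itself moves this value upward and it tests nothing. In ChAT-BKO, with no library left out, the median of the 20 markers was 0.65. The 6 inhibitory neuron markers summed to 425 to 495 CPM at ZT8 and 490 to 580 CPM at ZT20, with 4 of 6 higher at an unadjusted p under 0.05, against 4.74% of all genes. The 5 red blood cell markers summed to 160 to 403 CPM at ZT8 and 209 to 611 CPM at ZT20, with 4 of 5 higher at that unadjusted p. The 6 fibroblast markers summed to 17.3 to 35.6 CPM and 23.6 to 39.6 CPM, with 3 of 6 higher at that p. No marker of these lists was at 0 in all control libraries. The part of these cells in the results below was not tested beyond the values given, and in bulk RNA fewer cells of a type cannot be told apart from less RNA per cell.

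The main edgeR test called few genes between night and day in control cholinergic neurons, and some other fits described further below called more. At an edgeR adjusted p under 0.05, 21 genes (0.0966% of those tested) were higher at ZT20 and 4 genes (0.0184%) were lower. Calls and adjusted p are those of edgeR unless DESeq2 is named, and DESeq2 made more calls (0.567% of the 12883 genes it gave an adjusted p higher and 0.419% lower). The fold at ZT20 over ZT8 of the 21 genes ran from 1.23 to 6.04, and the median log2 fold change of all genes tested was 0.0031. At an unadjusted p under 0.05, 4.74% of genes were higher and 3.51% lower, and 50.9% of all genes tested had a log2 fold change above 0. All 6 ZT20 libraries were above all 6 ZT8 libraries for 0.589% of genes and below them for 0.35%, and this held for 20 of the 21 genes called higher and 3 of the 4 called lower.

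**Figure D1:**
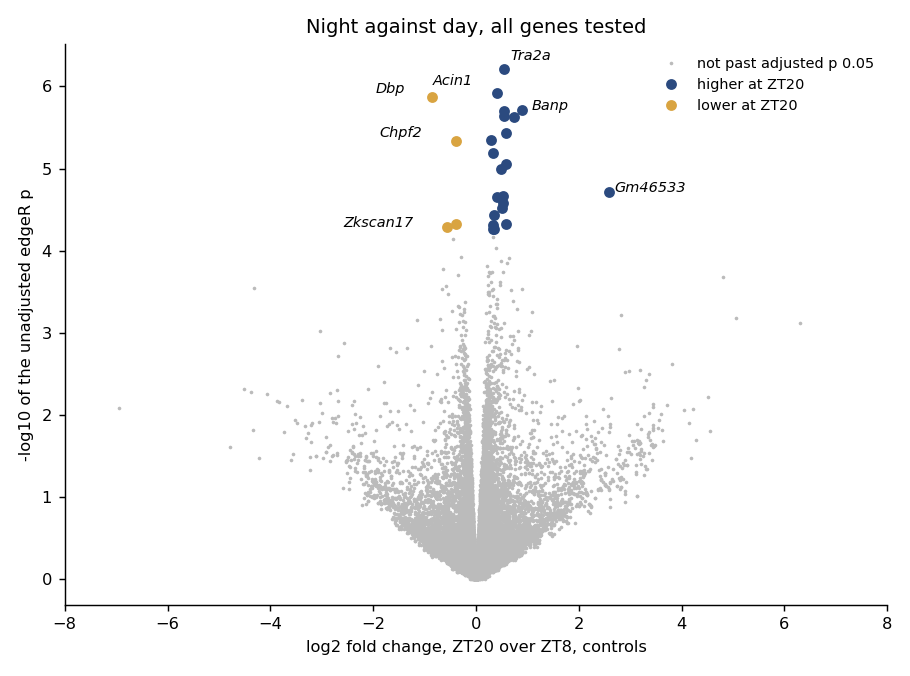
Each point is 1 of the 21738 genes tested, placed by its log2 fold change at ZT20 over ZT8 in controls and by the -log10 of its unadjusted edgeR p. The 21 genes called higher (blue) lie between log2 fold changes of 0.30 and 2.59, and the 4 called lower (yellow) between -0.86 and -0.38.

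Dbp, the E-box-driven PAR bZIP output factor of the clock, had the lowest fold change of the 4 genes that fell. Its lowest, median and highest levels were 13.5, 16.8 and 23.1 CPM at ZT8 and 8.06, 9.30 and 11.7 CPM at ZT20. The groups did not overlap, and the log2 fold change was -0.86 ± 0.12 (SE, adjusted p = 0.0074). Dbp lies at chr7:45705088-45710203 (GRCm38, + strand) and overlaps Sphk2 on the other strand, whose log2 fold change was -0.04. Its mean level in control immunoprecipitates was 13.8 CPM against 42.8 CPM in the input, so the RNA was less abundant in the immunoprecipitate than in whole cord, and how much of it came from other cells was not tested.

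Chpf2, an enzyme of chondroitin chain synthesis, was 178, 187 and 220 CPM (lowest, median and highest) at ZT8 and 134, 148 and 160 CPM at ZT20. The groups did not overlap and the log2 fold change was -0.38 ± 0.060 (adjusted p = 0.010). Chpf2 was enriched over the input, at 173 CPM against 49.4 CPM. Odf2, a centriole appendage protein, fell by 0.39 on the log2 scale (adjusted p = 0.048), with 5 of 6 ZT20 libraries below all ZT8 libraries. It was called in 2 of the 12 fits that left out 1 library. Zkscan17, a zinc finger gene, fell by 0.57 on the log2 scale (adjusted p = 0.048), without overlap between the groups, but it was called in none of the 12 fits that left out 1 library.

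The remaining clock genes showed small differences. Of 27 members of the clock gene lists and clock output lists, Dbp was the only one that passed the adjusted threshold. At an unadjusted p under 0.05, 2 were higher and 5 lower (Dbp included), against 4.74% and 3.51% of all genes. The median size of their log2 fold changes was 0.12. No clock member was called higher by edgeR (against 0.0966% of all genes). With DESeq2 Dbp was also the only member called.

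Among the activators, Arntl (Bmal1) was 6.22, 8.55 and 9.99 CPM (lowest, median and highest) at ZT8 and 7.60, 8.50 and 10.9 CPM at ZT20. The groups overlapped and the log2 fold change was 0.05 ± 0.13 (adjusted p = 0.96). Its partner Clock had a log2 fold change of 0.18 ± 0.11, the paralog Npas2 of 0.44 ± 0.30 and Arntl2 of 0.35 ± 0.19, with adjusted p from 0.67 to 0.74. Npas2 and Arntl2 were detected at medians of 1.19 and 2.40 CPM at ZT8, so counting error was large for them.

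The repressors were close to level. Per1 was 25.7, 28.1 and 34.0 CPM at ZT8 and 26.6, 28.1 and 32.9 CPM at ZT20, with a log2 fold change of 0.01 ± 0.076 (adjusted p = 0.99). Per2 had 0.11 ± 0.18 at a ZT8 median of 3.97 CPM, Cry1 0.05 ± 0.13 at 3.94 CPM and Cry2 0.03 ± 0.048 at 118 CPM, all with overlapping groups. Per3 was lower at ZT20 by point estimate, at -0.24 ± 0.12 with an adjusted p of 0.60 and a range of 5.37 to 8.20 CPM at ZT8 against 5.06 to 6.68 CPM at ZT20.

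The REV-ERB genes did not pass either. Nr1d1, which encodes REV-ERB alpha, a repressor of Arntl, was 44.8, 46.3 and 58.2 CPM at ZT8 and 34.2, 38.6 and 63.6 CPM at ZT20. Of the ZT20 libraries, 5 were below every ZT8 library and 1 was above every one of them, and the log2 fold change was -0.20 ± 0.12 (adjusted p = 0.70). Nr1d2, for REV-ERB beta, showed the opposite layout: 5 ZT20 libraries above and 1 below all ZT8 libraries, with a log2 fold change of 0.12 ± 0.063 (adjusted p = 0.67).

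Rora and Rorb, which encode receptors that activate Arntl, had log2 fold changes of -0.06 and 0.18, neither past the threshold. Ciart, which encodes the repressor CHRONO, was 9.29, 11.7 and 15.1 CPM at ZT8 and 7.82, 9.19 and 10.3 CPM at ZT20. Its log2 fold change was -0.37 ± 0.11, with an adjusted p of 0.29, and 3 of 6 ZT20 libraries were below all ZT8 libraries. The DEC repressors Bhlhe40 and Bhlhe41 had log2 fold changes of -0.14 and 0.02.

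Nfil3, a repressor that competes with DBP for D-boxes, had the reverse sign of Dbp. It was 4.83, 6.05 and 6.57 CPM at ZT8 and 6.61, 7.66 and 9.17 CPM at ZT20, so the groups did not overlap, but the log2 fold change of 0.35 ± 0.12 had an adjusted p of 0.40. The PAR bZIP factors Tef and Hlf, related to DBP, had log2 fold changes of -0.03 and 0.07. Among 7 clock output genes the 2 with the smallest p were Tspan4, at -0.29 ± 0.084 (adjusted p = 0.28), and Coq10b, at 0.22 ± 0.085 (adjusted p = 0.48). The other 5 output genes (Wee1, Usp2, Tsc22d3, Nampt and Por) lay between -0.15 and 0.10. Of 11 kinases and ligases that act on clock proteins none was called, and Fbxl21, a ubiquitin ligase subunit for cryptochromes, had the smallest p, with -0.34 ± 0.15 (adjusted p = 0.56).

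**Figure D2:**
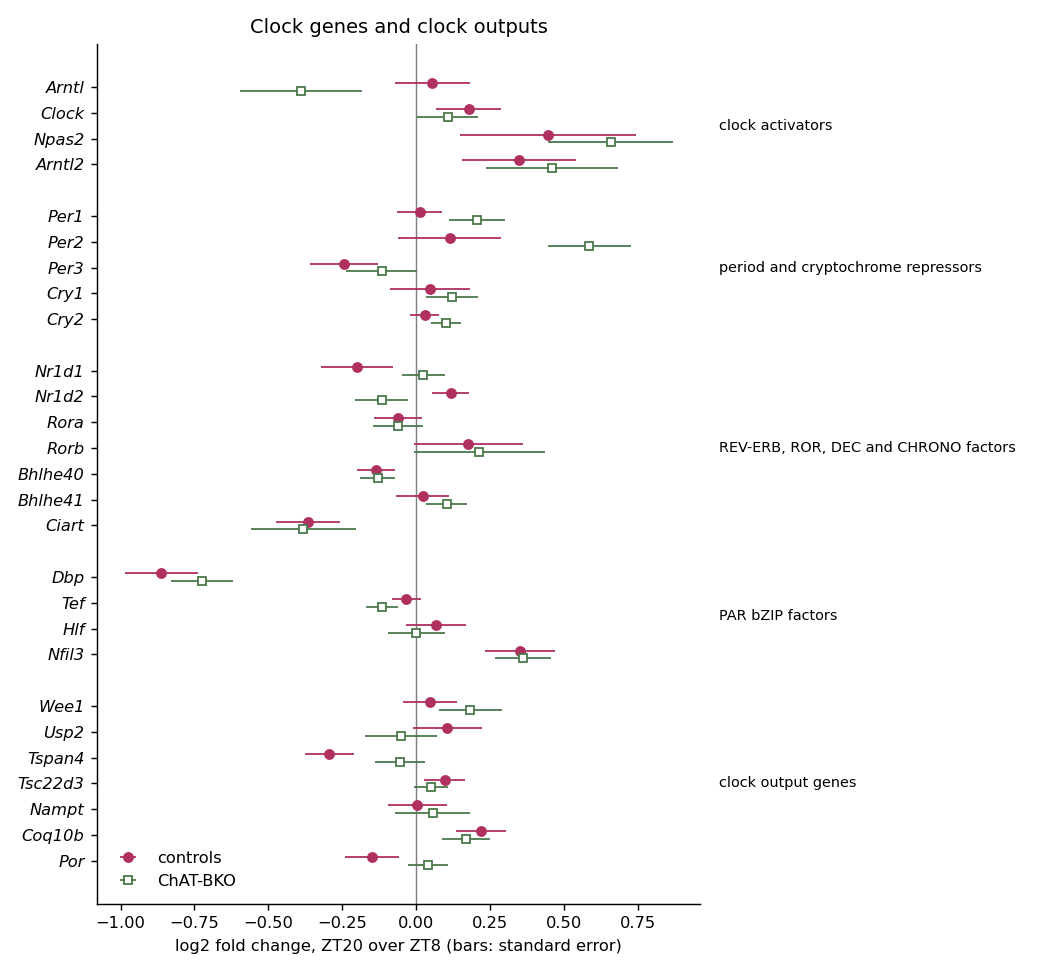
Log2 fold change at ZT20 over ZT8 of 27 clock and clock output genes in controls (filled) and in ChAT-BKO (open squares), with standard errors as bars. Dbp lies farthest below 0 in controls, at -0.86, and the other control values run from -0.37 (Ciart) to 0.44 (Npas2).

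Among the genes that rose, Xbp1 and Pdia6 belong to the unfolded protein response of the endoplasmic reticulum. Xbp1, a transcription factor of that response, was 27.3, 34.5 and 37.4 CPM at ZT8 and 41.0, 49.2 and 53.5 CPM at ZT20. The groups did not overlap and the log2 fold change was 0.54 ± 0.080 (adjusted p = 0.0074). Pdia6, a protein disulfide isomerase that folds proteins in the reticulum, was 89.1, 99.0 and 115 CPM at ZT8 and 112, 126 and 139 CPM at ZT20. Of its ZT20 libraries, 5 of 6 were above all ZT8 libraries, and the log2 fold change was 0.34 ± 0.066 (adjusted p = 0.048). Pdia6 was called in 2 of the 12 fits that left out 1 library, and Xbp1 in all 12.

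DESeq2 called 3 of the 24 genes in the unfolded protein response list higher, Xbp1, Pdia6 and Manf, against 0.567% of the genes it gave an adjusted p. Xbp1 and Pdia6 were the 2 called by edgeR, both higher, against 0.0966% of all genes. A further 10 were higher at an unadjusted p under 0.05, which made 12 of 24 against 4.74% of all genes, and none was lower. The list's median log2 fold change was 0.11, against 0.0031 over all genes tested, and 22 of 24 members were above 0, against 50.9% of all genes. Manf, a secreted protein of the stressed reticulum, had no overlap between groups, at 24.8 to 35.4 CPM and 35.7 to 45.9 CPM, and a log2 fold change of 0.39 ± 0.080 with an adjusted p of 0.073 by edgeR and 0.0033 by DESeq2. The chaperone Hspa5 (BiP), which holds the stress sensors inactive, was 438, 504 and 541 CPM at ZT8 and 541, 566 and 600 CPM at ZT20, with a log2 fold change of 0.18 ± 0.053 (adjusted p = 0.28).

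The sensors and early factors of the response lay nearer to 0: Atf4 at 0.0037, Atf6 at 0.02, Ern1 (IRE1) at 0.02, Eif2ak3 (PERK) at -0.04 and Ddit3 (CHOP) at -0.12, with adjusted p from 0.75 upward. Among the folding enzymes of the reticulum that did not pass, Creld2 was at 0.42 ± 0.11 and Pdia4 at 0.20 ± 0.069 on the log2 scale. The study's own list of 89 ALS genes was named there as rhythmic in a time course of younger mice that is not analysed here. It held 1 call by edgeR and by DESeq2, Xbp1, against 0.0966% and 0.567% of genes called higher by each. Its median log2 fold change was -0.0075.

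Promoters were read for the genes that lead these results, because 2 unfolded protein response genes were called and Dbp is a direct clock target. RefSeq sequences of GRCm38.p6 from 250 bases before to 50 after a start were at hand for 18 of the 25 called genes and 21 of the 24 unfolded protein response genes. The ER stress element, searched on both strands as CCAAT and CCACG with 9 free bases between them, was in 9 of those 21 promoters and in 0.137% of all 27025 genes with a promoter. The 9 were Hspa5, Hsp90b1, Calr, Canx, Pdia6, Dnajc3, Creld2, Derl3 and Syvn1. Of the 18 called genes, Pdia6 alone held it. It stands in capitals in the following, each read 5′ to 3′ on the + strand.
Pdia6, chr12:17266339-17266638: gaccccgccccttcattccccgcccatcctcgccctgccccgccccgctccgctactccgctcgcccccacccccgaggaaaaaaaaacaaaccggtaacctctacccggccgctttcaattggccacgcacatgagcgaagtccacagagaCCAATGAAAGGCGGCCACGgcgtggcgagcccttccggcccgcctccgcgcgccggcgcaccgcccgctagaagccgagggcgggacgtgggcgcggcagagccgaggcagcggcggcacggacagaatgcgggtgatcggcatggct
Creld2, chr15:88819396-88819695: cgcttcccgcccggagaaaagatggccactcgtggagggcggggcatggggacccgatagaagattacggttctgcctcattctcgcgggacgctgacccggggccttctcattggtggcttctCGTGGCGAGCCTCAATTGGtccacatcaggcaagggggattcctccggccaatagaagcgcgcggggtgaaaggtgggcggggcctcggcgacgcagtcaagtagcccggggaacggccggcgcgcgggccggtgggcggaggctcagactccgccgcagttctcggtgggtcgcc
Hspa5, chr2:34771840-34772139: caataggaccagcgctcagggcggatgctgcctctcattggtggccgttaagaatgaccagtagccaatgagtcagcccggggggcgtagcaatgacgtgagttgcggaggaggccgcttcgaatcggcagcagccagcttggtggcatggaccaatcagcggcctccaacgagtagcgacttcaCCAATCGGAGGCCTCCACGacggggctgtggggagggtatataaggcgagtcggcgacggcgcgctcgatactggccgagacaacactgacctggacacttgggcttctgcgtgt

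The matches began 98, 126 and 65 bases before the start in Pdia6, Creld2 and Hspa5. The promoter of Xbp1 held none of the motifs searched, and so did that of Dbp in this window. They are shown for comparison, with no capitals, both on the + strand.
Xbp1, chr11:5520391-5520690: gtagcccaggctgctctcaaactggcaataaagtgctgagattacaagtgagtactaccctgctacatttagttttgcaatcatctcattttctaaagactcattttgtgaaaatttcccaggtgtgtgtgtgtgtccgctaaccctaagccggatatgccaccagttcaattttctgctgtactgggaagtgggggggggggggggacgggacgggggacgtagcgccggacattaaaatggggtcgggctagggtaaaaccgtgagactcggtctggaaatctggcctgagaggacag
Dbp, chr7:45704997-45705296: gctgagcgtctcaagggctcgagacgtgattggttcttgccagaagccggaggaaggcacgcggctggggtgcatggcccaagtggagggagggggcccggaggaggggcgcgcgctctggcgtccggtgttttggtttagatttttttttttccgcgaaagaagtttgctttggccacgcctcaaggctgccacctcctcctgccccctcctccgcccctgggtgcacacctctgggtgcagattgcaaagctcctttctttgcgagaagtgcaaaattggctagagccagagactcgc

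The E-box (CACGTG) was in none of the 18 called promoters and in 8.09% of all. It was in 7 of the 24 clock members with a promoter: Bhlhe41, Ciart, Coq10b, Cry1, Per1, Tef and Tspan4. Neither form of the D-box, TTATGTAA or TTACGTAA, nor the RORE (TAGGTCA) was in a called promoter, against 1.23% and 2.97% of all. The cAMP response element (TGACGTCA), which does not overlap the other motifs, was in Tra2a and 9330159F19Rik, 2 of the 18 called, against 2.03% of all, and is in capitals in the Tra2a promoter, on the - strand.
Tra2a, chr6:49264003-49264302: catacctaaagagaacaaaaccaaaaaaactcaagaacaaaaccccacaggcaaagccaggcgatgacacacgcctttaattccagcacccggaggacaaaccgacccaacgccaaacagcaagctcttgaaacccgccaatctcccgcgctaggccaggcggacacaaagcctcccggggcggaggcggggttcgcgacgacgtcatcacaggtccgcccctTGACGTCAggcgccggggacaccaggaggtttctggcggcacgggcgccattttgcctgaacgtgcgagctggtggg

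Several of the genes that rose are described next by their role in RNA processing, an order chosen after the values were seen and not tested. Tra2a, a splicing activator with arginine and serine repeats, had the smallest p of all genes. It was 32.4, 36.9 and 44.2 CPM at ZT8 and 52.6, 55.4 and 62.1 CPM at ZT20, without overlap, and its log2 fold change was 0.55 ± 0.075 (adjusted p = 0.0074). Acin1, a part of the exon junction complex, was 64.6, 71.5 and 74.9 CPM at ZT8 and 84.7, 94.0 and 99.4 CPM at ZT20, and its log2 fold change was 0.40 ± 0.058 (adjusted p = 0.0074).

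Arglu1, a regulator of splicing and of nuclear receptors, was 8.27, 9.69 and 11.7 CPM at ZT8 and 13.6, 16.5 and 20.6 CPM at ZT20, a log2 fold change of 0.75 ± 0.11 (adjusted p = 0.0074). Luc7l, a U1 snRNP factor, was 81.3, 85.5 and 90.0 CPM at ZT8 and 100.4, 106 and 108 CPM at ZT20, a log2 fold change of 0.30 ± 0.047 (adjusted p = 0.010). Sfpq, a paraspeckle protein, was 66.9, 72.3 and 75.9 CPM at ZT8 and 84.7, 89.5 and 97.2 CPM at ZT20, a log2 fold change of 0.33 ± 0.054 (adjusted p = 0.013). In each of the 3 genes the groups did not overlap.

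Srek1, Prpf38b and Snrnp48, which encode splicing factors, had log2 fold changes of 0.59, 0.48 and 0.51. Ythdc1, a nuclear reader of methylated adenosine, had 0.35. The noncoding RNA Neat1, the scaffold of paraspeckles, was 159, 171 and 194 CPM at ZT8 and 194, 233 and 279 CPM at ZT20, a log2 fold change of 0.41 ± 0.074 (adjusted p = 0.030). Neat1 is not translated, and its log2 ratio of control immunoprecipitates to the input was -0.93.

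Banp, a DNA-binding protein of the nuclear matrix, had the highest fold change of the called genes other than Gm46533, which is described after it. It was 9.68, 12.0 and 17.6 CPM at ZT8 and 18.9, 23.1 and 27.8 CPM at ZT20, without overlap, and its log2 fold change was 0.89 ± 0.13 (adjusted p = 0.0074). Uhrf2, a ubiquitin ligase that binds modified DNA, had a log2 fold change of 0.59 ± 0.091 (adjusted p = 0.0099), with 12.3 to 19.2 CPM at ZT8 and 23.2 to 28.4 CPM at ZT20. P4ha1, a subunit of the collagen prolyl hydroxylase, had 0.53 ± 0.096 (adjusted p = 0.033).

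Hexim1, an inhibitor of the elongation factor P-TEFb, Tasor, a subunit of a silencing complex, and 9330159F19Rik had log2 fold changes of 0.33, 0.58 and 0.33, each with an adjusted p of 0.048. These 3 genes, Snrnp48 and Ythdc1 were named after their values were seen, to complete the 21. Gm46533 was under 1.2 CPM in every control library, at 0 to 0.145 CPM at ZT8 and 0.349 to 1.13 CPM at ZT20, and its fold rests on few counts.

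The mitochondrial ribosomal RNAs mt-Rnr1 and mt-Rnr2 were the only mitochondrially encoded genes in the table used here. mt-Rnr2 was 135, 145 and 160 CPM at ZT8 and 178, 206 and 258 CPM at ZT20, a log2 fold change of 0.54 ± 0.081 (adjusted p = 0.0074), and mt-Rnr1 had 0.53 ± 0.095 (adjusted p = 0.030). Both were far below the input, with log2 ratios of -2.69 for mt-Rnr1 and -3.39 for mt-Rnr2. Together they made up 0.0298 to 0.0334% of counts at ZT8 and 0.0378 to 0.0553% at ZT20. In all, 13 of the 21 genes called higher were below the level of the 1 pooled input library. Some of the 13 were close to it, such as Acin1 and Xbp1 with log2 ratios of -0.036 and -0.018. The share of all genes tested that were below the input is not given here. The part of RNA that was not bound to tagged ribosomes was not tested.

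**Figure D3:**
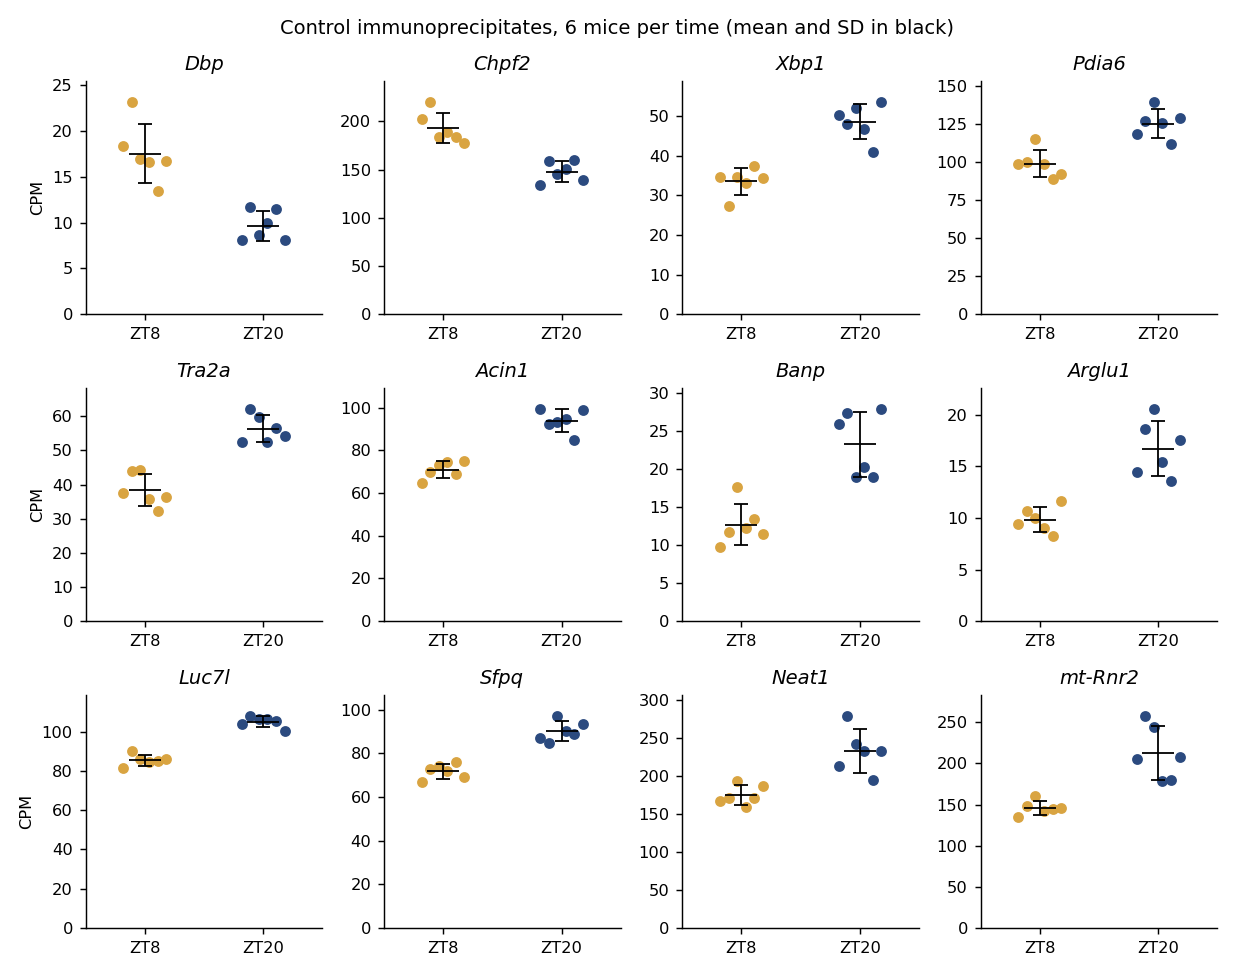
CPM of 12 genes called between night and day in the 6 control libraries at ZT8 (yellow) and the 6 at ZT20 (blue), with the mean and SD in black. The groups are separate in every panel but that of Pdia6, where the lowest ZT20 library, at 112 CPM, is under the highest ZT8 library, at 115 CPM.

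Lists of splicing proteins held few edgeR calls. A list of 20 genes held SR proteins, which bind exons, and the kinases that phosphorylate them. Of these 20, Tra2a was the 1 called by edgeR, 9 were higher at an unadjusted p under 0.05 (4.74% of all genes) and none was lower. The median log2 fold change was 0.16. DESeq2 called 4, Tra2a, Tra2b, Srsf4 and Clk3, all higher, against 0.567% of the genes it gave an adjusted p. Tra2b, its paralog, had no overlap between groups and a log2 fold change of 0.27 ± 0.059 (adjusted p = 0.11). Of 24 hnRNPs, which bind pre-mRNA and often oppose SR proteins, none was called by edgeR. DESeq2 called 4 of them higher (Hnrnpu, Hnrnph1, Hnrnpk and Hnrnph3), against the same 0.567%. Of the 24 hnRNPs, 5 were higher and 1 lower at an unadjusted p under 0.05 (4.74% and 3.51% of all genes), with a median of 0.04. Hnrnpu and Hnrnph1 had the smallest p, at 0.22 ± 0.047 and 0.26 ± 0.059 (adjusted p = 0.10 and 0.13). The study's list of 70 RNA-binding proteins was named there as rhythmic by a rhythm test over a time course of younger mice. It held 1 edgeR call, Sfpq, and 3 by DESeq2 (Sfpq, Srsf4 and Mettl16), all higher, against 0.0966% and 0.567% of genes. Its median was 0.03, with 43 members above 0 and 27 below. The study describes peaks of these genes at both ZT8 and ZT20, so members of opposite phase would offset each other in the median.

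Of 23 cytosolic chaperones of the heat shock response, none was called by edgeR. DESeq2 called 2 of them higher, Chordc1 and Dnajb4, against 0.567% of the genes it gave an adjusted p. By edgeR, 10 were higher and none lower at an unadjusted p under 0.05, against 4.74% and 3.51% of all genes. All 23 were above 0, against 50.9% of all genes, with a median log2 fold change of 0.11. Chordc1, a cochaperone of HSP90, had 0.32 ± 0.072 (adjusted p = 0.13) and Dnajb4, a cochaperone of HSP70, 0.24 ± 0.054 (adjusted p = 0.13). The inducible HSP70 gene Hspa1b was 9.01, 11.6 and 22.0 CPM at ZT8 and 15.8, 19.9 and 25.9 CPM at ZT20, with a log2 fold change of 0.67 ± 0.17 (adjusted p = 0.21). Hspa1a and Hspa1b are near-identical copies, so the division of reads between them is uncertain.

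The heat shock element, 3 alternating blocks of GAA and TTC with 2 free bases between, was in the promoters of Hsph1 and Chordc1, 2 of 18 with a promoter, against 0.662% of all genes. The cold-inducible RNA-binding proteins had the opposite sign of the chaperones, Cirbp at -0.24 ± 0.11 and Rbm3 at -0.13 ± 0.071, neither past the threshold (adjusted p = 0.61 and 0.67). The 7 mitochondrial chaperones had a median of -0.03, with Hspd1 and Hspe1 at 0.08 and 0.11.

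**Figure D4:**
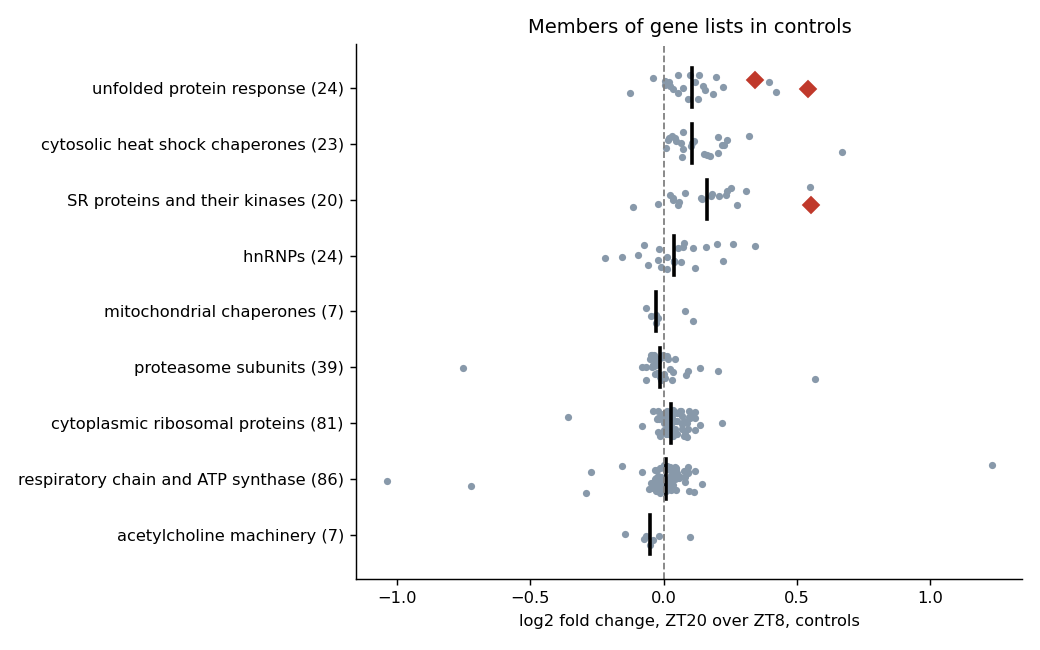
Log2 fold change at ZT20 over ZT8 in controls of each member of 9 gene lists, with the number of members in brackets, list medians as black bars and the median of all genes as a dashed line. Red diamonds mark the 3 members called, Xbp1, Pdia6 and Tra2a, and all 23 cytosolic chaperones lie above 0.

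On the lists for glucocorticoid responses and immediate early genes, 15 of 22 and 14 of 22 members were above 0, against 50.9% of all genes. None was called by edgeR. Cdkn1a was called higher by DESeq2 (adjusted p = 0.0092), as were 0.567% of the genes it gave an adjusted p. Of 22 glucocorticoid-responsive genes, 4 were higher and 1 lower at an unadjusted p under 0.05 (4.74% and 3.51% of all genes), and the median log2 fold change was 0.09. Cdkn1a, an inhibitor of the cell cycle, was 3.15 ± 0.80 CPM (SD, n = 6) at ZT8 and 5.88 ± 1.54 CPM at ZT20, with a log2 fold change of 0.89 ± 0.20 and an edgeR adjusted p of 0.13. Errfi1, a brake on EGF receptors, had 0.22 ± 0.069. Of 22 immediate early genes, which follow neuronal activity, 4 were higher and 1 lower at an unadjusted p under 0.05 (again 4.74% and 3.51% of all genes), and the median was 0.13. Fos had a log2 fold change of 0.43 ± 0.13 (adjusted p = 0.33), and Egr4, at under 1 CPM on average, 1.08 ± 0.37 (adjusted p = 0.41).

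The machinery that makes these neurons cholinergic and excitable was near level. None of the 7 genes of acetylcholine synthesis and transport was called by edgeR or DESeq2, and their median log2 fold change was -0.05. The vesicular transporter Slc18a3 was 837 ± 58.0 CPM (SD, n = 6) at ZT8 and 799 ± 44.5 CPM at ZT20, and the choline transporter Slc44a1 had -0.14 ± 0.060. The 17 sodium and calcium channels, 18 potassium channels and 17 glutamate receptors had medians of -0.05, -0.06 and -0.06 and no edgeR calls. DESeq2 called 1 of these genes, Cacna1g, lower (adjusted p = 0.0043), against 0.419% of the genes it gave an adjusted p. Cacna1g, a T-type calcium channel, was at -0.16 ± 0.047 (adjusted p = 0.28), Kcnd1, of the A-type current, at -0.11 ± 0.051 (adjusted p = 0.60), and Grik2, a kainate receptor, at 0.30 ± 0.091 (adjusted p = 0.35). The 16 tubulins and neurofilaments had 15 members below 0 (50.9% of all genes were above 0) and a median of -0.06, with Tubb3 and Tubb5 both at -0.08.

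Metabolic and housekeeping lists held no calls by edgeR or DESeq2. The medians were 0.03 for 81 cytoplasmic ribosomal proteins, 0.01 for 86 respiratory chain and ATP synthase subunits, and -0.01 for 39 proteasome subunits. They were 0.0038 for 24 genes of glycolysis and hypoxia, 0.04 for 21 genes of antioxidant defense and -0.03 for 28 genes of autophagy and mTOR. The 27 genes of cholesterol synthesis had the lowest median of these, at -0.07, with 21 members below 0 (50.9% of all genes were above 0) and none past an unadjusted p of 0.05. Of the genes with the smallest p in these lists, the lysosomal regulator Tfeb was at 0.31 ± 0.10 (adjusted p = 0.40), and the cholesterol enzyme Lss at -0.21 ± 0.11 (adjusted p = 0.63).

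ChAT-BKO mice, which shared no library with the controls, gave a second set of night and day values. In these mice Arntl was at 2.64 ± 0.54 CPM (SD, n = 6) at ZT8 and 1.92 ± 0.52 CPM at ZT20, against 8.44 ± 1.43 and 8.73 ± 1.18 CPM in controls. There 50 genes (0.23%) were higher and 12 (0.0552%) lower at ZT20. All 25 genes called in controls had the same sign in ChAT-BKO, and 16 of them, 14 higher and 2 lower, were also called there. In the other direction, 61 of the 62 ChAT-BKO calls had the same sign in controls. Of the 62, 55 had an unadjusted p under 0.05 there, against 8.25% of all genes tested. The share of all genes with the same sign in both genotypes is not given here, so the same-sign counts have no background beside them.

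No gene differed between the genotypes in its change from day to night by edgeR (848 at an unadjusted p under 0.05), DESeq2 or voom, and the smallest edgeR adjusted p was 0.86. Dbp fell by 0.72 on the log2 scale in ChAT-BKO (adjusted p = 0.0025), and the difference from controls was 0.14 ± 0.17 (SE) with an unadjusted p of 0.43. Xbp1 had log2 fold changes of 0.54 in controls and 0.57 in ChAT-BKO, and Uhrf2 0.59 in both. Banp had 0.89 in controls and 1.40 in ChAT-BKO, and Arglu1 0.75 and 0.33, with unadjusted p of the difference of 0.012 and 0.0087 that did not survive adjustment. Hspa1b had 0.67 in controls and 1.63 in ChAT-BKO (adjusted p = 9.3e-06 there), with an unadjusted p of the difference of 0.000685. Over the 8732 genes with a mean of 10 CPM or more, the log2 fold changes of controls and ChAT-BKO had a Pearson r of 0.52 and a Spearman rho of 0.49 across genes, which are not independent.

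**Figure D5:**
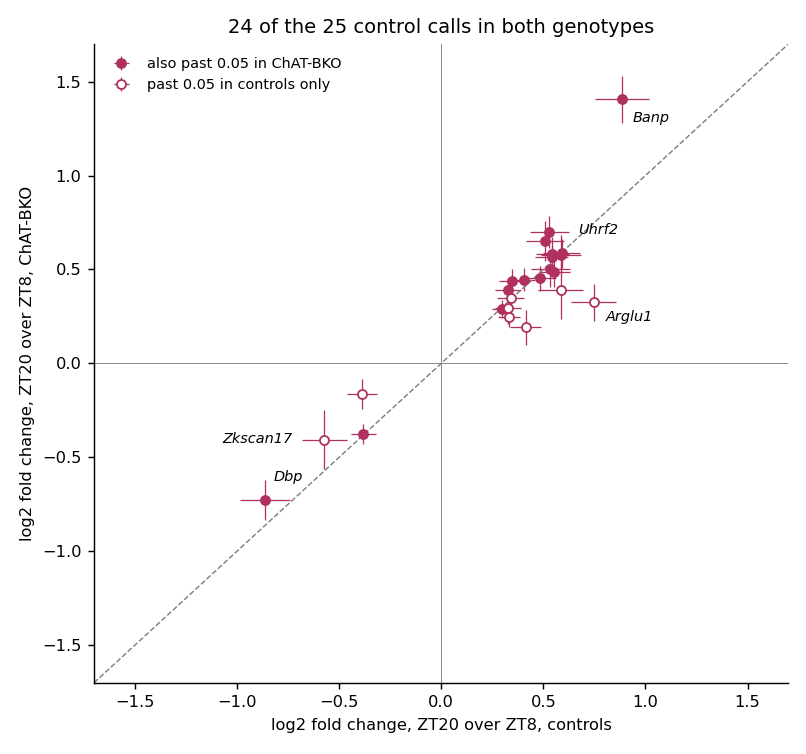
Log2 fold change at ZT20 over ZT8 of 24 of the 25 genes called in controls (Gm46533, at 2.59 and 1.91, is off the scale), in controls against ChAT-BKO, with standard errors and a dashed line of equality. Filled points were called in both genotypes, and all points have the same sign in both.

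Without the 3 ZT8 libraries richest in muscle RNA, a choice made after seeing the data, none of the unfolded protein response genes was called and 19 of 24 were above 0 (median 0.10 on the log2 scale). Of the cytosolic chaperones, 21 of 23 were then above 0 (median 0.12). Dbp and Xbp1 then had an adjusted p of 0.059. The fit without these libraries had less power, and the part of muscle RNA in its lost calls was not tested. With the muscle marker level as a covariate and no library left out, 3 of the 24 unfolded protein response genes were called higher. In that fit 20 of 24 were above 0. With DESeq2 size factors in edgeR 1 of 24 was called, and with the length covariate described next 6. Over 22 alternative settings Xbp1 and Dbp were each called in 21, and Pdia6 in 9.

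The counts of calls moved with the method. DESeq2 called 73 genes higher and 54 lower in controls, edgeR called 196 and 151 with a covariate for how steeply CPM rises with gene length in a library (the length slope), and leaving out 1 library at a time it called 9 to 25 and 1 to 5. Tra2a, Acin1, Dbp, Banp, Xbp1, mt-Rnr2, Arglu1, Uhrf2 and Luc7l were called in all 12 fits that left out 1 library. Chpf2 was called in 11 of them, Sfpq in 10, Srek1 in 8, Prpf38b in 7, Neat1 and P4ha1 in 6 and mt-Rnr1 in 5. Gm46533 and Snrnp48 were called in 4, Pdia6, Odf2, Ythdc1, 9330159F19Rik and Hexim1 in 2, Tasor in 1 and Zkscan17 in none.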

How the data were processed

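RNA bound to HA-tagged ribosomes was sequenced from single spinal cords, with stranded poly(A) libraries. Per the labels and methods, reads were aligned with STAR 2.7.5 to mm10 and the authors deposited expected counts per gene from RSEM on an Ensembl annotation. Of the values, 6.11% were not whole, and all were rounded. Genes are listed by symbol, with 2220 LOC identifiers. The authors used DESeq2 1.32.0.

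Genes with 10 or more counts over the 24 immunoprecipitates were tested with edgeR 4.0.16 (quasi-likelihood F test, TMM, R 4.3.3) on the 12 control libraries, with 2-sided p, Benjamini-Hochberg adjustment over all 21738 genes and a threshold of 0.05. SE is the absolute log2 fold change divided by the root of F. CPM are TMM-scaled over the 24 immunoprecipitates. DESeq2 1.42.0, limma voom 3.58.1, other scalings and filters, covariates, all 24 libraries in 1 fit, a stricter threshold and leaving out each library were alternatives. The scripts were tested on simulated data. Named were the 15 calls of smallest adjusted p in each direction, every clock member, called members of other lists (up to 6) or else their 2 of smallest p, and other list members shown as examples were chosen after their values were seen.

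A few list members are not reported here and are left out of the list counts. Members and lists were chosen with earlier results of these data known. Coordinates are from GENCODE M21 (GRCm38, the build of mm10), and 23 of the 25 called genes had them. A tested gene overlapped 7 of the 23, on the other strand for 6, and whether counting used strand is not given in the sources used here. The 30 pairs of control libraries of 1 time had a chi-square per degree of freedom of 2.47 to 25.2, so none was a duplicate. Nothing but the replicate numbers pairs the mice. The precision is set by 6 mice per time, with p-values over mice.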

Additional observations from a re-analysis of the deposited data

Results flagged for a closer look

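Levels in the 6 control libraries of each time were checked for 1 library standing apart, for the called and clock genes, in 102 groups of 6. Of these, 9 (8.82%) had a highest or lowest library whose gap to the next exceeded Dixon's critical value as a share of the range, where chance gives about 1 in 20.

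At ZT8, Uhrf2 was at 12.3 CPM in replicate 1, with the next library at 16.9, and Rorb at 1.68 CPM in the same replicate, with the next at 2.49. Gm46533 was at 0 CPM in ZT8 replicate 3. Replicate 5 at ZT8 was the highest for Zkscan17 at 10.0 CPM (next 7.93), Clock at 22.2 CPM (next 16.7) and Nr1d1 at 58.2 CPM (next 49.7). At ZT20, replicate 1 was the highest for Clock at 24.4 CPM (next 18.8) and Nr1d1 at 63.6 CPM. Snrnp48 was at 20.8 CPM in ZT20 replicate 2 (next 17.7).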

How the results depend on the processing

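Numbers of genes called in controls were 21 higher and 4 lower. DESeq2 gave 73 and 54, the length slope covariate 196 and 151, and an adjusted p under 0.01 gave 7 and 1. Lower calls were 8 with voom and 7 with filterByExpr. Without ZT8 replicates 2, 3 and 6, whose muscle marker level was above every ZT20 library (an alternative added after seeing the data), 10 were higher, 7 of them among the 21. Leaving out 1 library gave 9 to 25 higher and 1 to 5 lower, with 9 to 13 higher without ZT8 replicates 1, 4 or 6 or without ZT20 replicates 1, 2, 3, 4 or 6, and 1 or 2 lower without ZT8 replicates 1 or 4 or those same ZT20 replicates. With a replicate block the counts were 62 and 24 and held all 25 calls. The labels and methods name no pairing by these numbers. Of 6 same-numbered pairs, 4 correlated over 0.1 (-0.143 to 0.707), and 2 ZT8 libraries correlated best with their own number. These values cannot settle whether the numbers mark a shared step, which was not tested.

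In ChAT-BKO, 50 genes were higher and 12 lower. DESeq2 gave 140 and 85, all 24 immunoprecipitates in the fit 104 and 36, the length slope covariate 278 and 185, and an adjusted p under 0.01 gave 19 and 5. Lower calls were 21 with filterByExpr and 5 with the muscle covariate. Leaving out 1 library gave 25 to 46 higher, with 25 to 30 without ZT8 replicates 1, 3 or 5, and 7 to 14 lower, with 7 without ZT8 replicates 3 or 6. The difference between genotypes had 1 call with the length slope covariate, Sprr1a (log2 difference 3.44, named after its value was seen), and 0 in the other fits run.

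No called gene changed sign in its 574 values under alternatives, and 172 of those missed the threshold. Of 84 named genes not called, 8 changed sign. Without the muscle-rich libraries the values were -0.092 for Arntl, -0.035 for Per1, 0.0082 for Tef, -0.026 for Wee1 and 0.64 for Mylpf. Nampt was -0.0013 with DESeq2, -0.0040 with its size factors, -0.0059 with filterByExpr, -0.0078 with the replicate block and -0.00051 with all 24 libraries. Leaving out 1 library gave -0.040 to 0.13 for Arntl, -0.031 to 0.061 for Per1, -0.0018 to 0.091 for Cry1, -0.043 to 0.080 for Bhlhe41 and -0.036 to 0.069 for Nampt. The causes were not tested. Depth limits genes of a few CPM.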
